A study of Mus musculus with 75 samples.

Results

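The genes described here are the 10 measured genes of insulin-like growth factor (IGF) and insulin signalling that were chosen by symbol: the ligands Igf1 and Igf2, the receptors Igf1r and Insr, the adaptors Irs1 and Irs2, and the IGF-binding genes Igfbp3, Igfbp4, Igfbp5 and Kazald1. All 10 were in the deposited table of 13856 genes. IGFs and insulin bind receptor tyrosine kinases, which phosphorylate the adaptor proteins Irs1 and Irs2 and so activate PI3-kinase and AKT. In skeletal muscle this pathway raises protein synthesis and glucose uptake and keeps FoxO transcription factors, which drive genes of protein breakdown, out of the nucleus. IGF-binding proteins hold IGFs in the extracellular space and limit or prolong their access to the receptor.

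Expression was measured by RNA sequencing of the gastrocnemius, the large muscle of the calf, from male and female Balb/c mice in 5 arms per sex. Mice were injected with phosphate-buffered saline (PBS) and given saline, or were injected on both sides with C26 cells, a mouse colon carcinoma line, and given saline, 5-fluorouracil, paclitaxel or cisplatin. Drugs were started on day 12 at 75% of the maximum tolerated dose, in 2 cycles with 2 injections per week, and muscle was collected on day 25. The question was how the tumour, and each drug on top of it, affected muscle in each sex. All tumours came from 1 cell line, and the drugs were given only to tumour-bearing mice, so a drug effect without tumour was not measured. The age of the mice is not fully given in the labels.

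Of 35 female libraries, 7 came from PBS mice, 7 from mice with C26 tumours and saline, 8 from those given 5-fluorouracil, 7 paclitaxel and 6 cisplatin. Of 38 male libraries there were 8 in each arm except paclitaxel, which had 6. Read totals recovered from the values ran from 11.4 to 40.5 M reads (median 22.5 M), and no library went against its sex label by Y-linked genes. All 10 myofibre markers were measured, with a summed level between 104740 and 287470 after back-transformation. In 19 of 73 libraries expression rose with the GC content of transcripts: their GC slope, the change in log2 deviation per standard deviation of GC content, was above 0.1, and transcripts of mitochondrial DNA made up a median of 2.58% of their expression against 10.5% in the rest. These 19 included 4 of 6 male paclitaxel and 4 of 8 male 5-fluorouracil libraries but 0 of 8 male C26 saline libraries. In addition, 7 of 35 female libraries, the 5 numbered 1 and those numbered 2 in the C26 saline and 5-fluorouracil groups, stood apart in Igf2.

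Levels are the authors' log2 expression values. A difference is the first-named group minus the second on that log2 scale, followed by ± its standard error from a limma fit of all 73 libraries. A gene was called where the p-value, adjusted over all 13856 genes (Benjamini-Hochberg), was under 0.05, and "rose" and "fell" are used only of called genes. Nothing in the labels tells which mice shared a cage or a day of handling, and the p-values reflect only the spread among these libraries. In whole muscle, fewer cells of a type and less RNA per cell cannot be told apart. Counts of called members are set beside the share of all genes called, because that share differed widely between comparisons. For counts at an unadjusted p under 0.05 the share of all genes was not computed. Those counts cannot be compared with the shares at the adjusted threshold.

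The tumour alone changed 1 of the 10 genes in females and 4 of 10 in males, where it called 6.7% and 26.1% of all genes. Igfbp4 rose in both sexes, and in males Igf1r rose while Igfbp5 and Kazald1 fell. Against C26 saline, 5-fluorouracil changed 1 gene in females (1.35% of all genes called) and 5 in males (23.3%). Cisplatin changed 1 gene in females (1.66% of all genes) and 6 in males (15.9%). Paclitaxel changed 0 of 10 in females, where 1 gene passed an unadjusted p under 0.05 and 0% of all genes were called (0 members and 0 genes with a block for the replicate number, and 0 members and 12 genes with the block and only the compared groups fitted), and 4 of 10 in males, where 31.9% were. The members' median difference was 0.01 for the tumour in females and 0.27 in males, against -0.01 and 0.00 over all genes. In males given a drug it lay between -0.54 (5-fluorouracil) and -0.27 (paclitaxel), against -0.04 to -0.00 over all genes. The drug comparisons use the same C26 saline libraries as the tumour comparison, so opposite signs in these comparisons are not independent of each other.

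**Figure D1:**
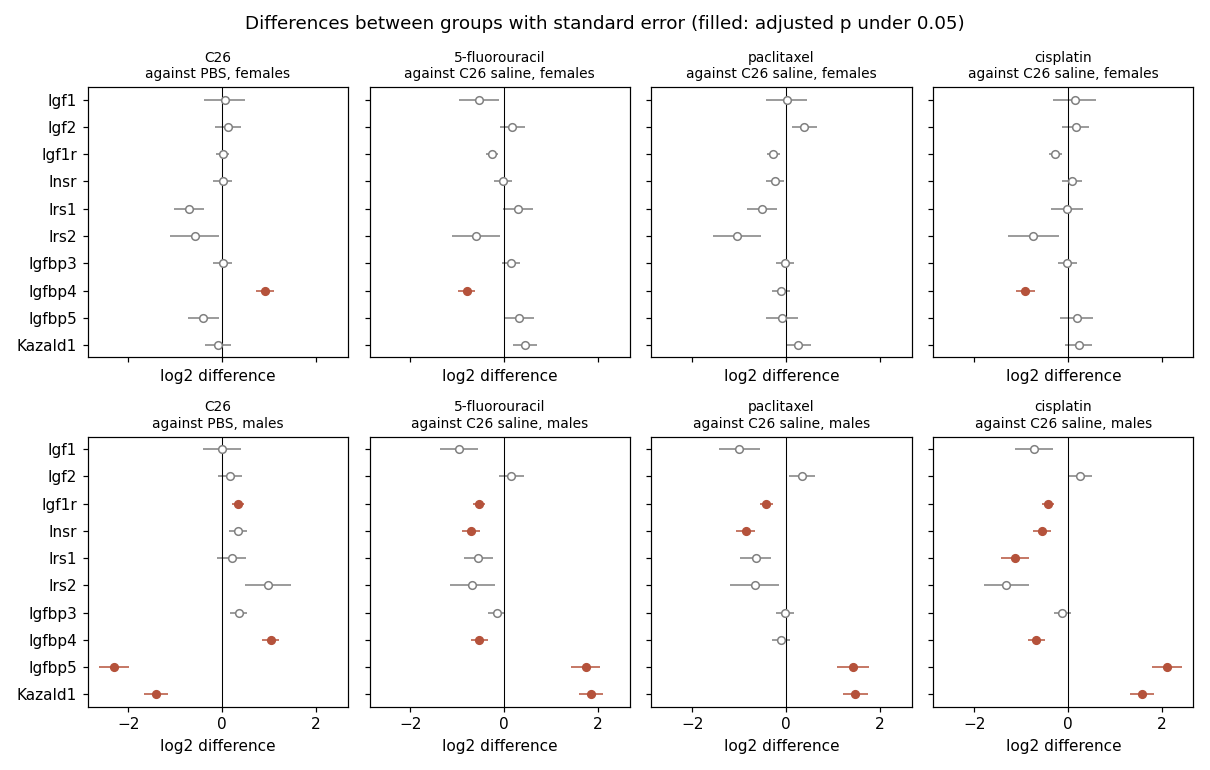
Log2 difference (x axis) of each of the 10 genes (y axis) in the 8 main comparisons, with the standard error as a bar. Filled points passed an adjusted p under 0.05; female panels hold filled points for Igfbp4 alone, while in males Igfbp5 and Kazald1 lie left of 0 for the tumour and right of 0 for each drug.

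Igfbp4, Igfbp5 and Kazald1 carried most of the calls. Their promoters are shown because these genes moved in different directions: the 250 bases before each start site, 5′ to 3′ on the gene's strand, from RefSeq (GRCm38.p6), with matches to the searched motifs in capitals. The windows lie at chr11:99040994-99041243 (plus strand) for Igfbp4, chr1:72874866-72875115 (minus strand) for Igfbp5 and chr19:45074991-45075240 (plus strand) for the first of the start sites listed for Kazald1.

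Igfbp4: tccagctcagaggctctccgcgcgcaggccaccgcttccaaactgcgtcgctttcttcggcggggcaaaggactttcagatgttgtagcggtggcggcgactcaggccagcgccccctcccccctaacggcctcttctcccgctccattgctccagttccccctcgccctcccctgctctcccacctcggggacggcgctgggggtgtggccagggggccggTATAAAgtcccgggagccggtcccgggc

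Igfbp5: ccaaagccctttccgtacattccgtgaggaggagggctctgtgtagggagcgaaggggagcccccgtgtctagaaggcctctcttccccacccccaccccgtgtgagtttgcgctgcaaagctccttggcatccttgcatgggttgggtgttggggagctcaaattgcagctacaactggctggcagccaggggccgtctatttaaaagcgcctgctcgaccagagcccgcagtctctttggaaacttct

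Kazald1: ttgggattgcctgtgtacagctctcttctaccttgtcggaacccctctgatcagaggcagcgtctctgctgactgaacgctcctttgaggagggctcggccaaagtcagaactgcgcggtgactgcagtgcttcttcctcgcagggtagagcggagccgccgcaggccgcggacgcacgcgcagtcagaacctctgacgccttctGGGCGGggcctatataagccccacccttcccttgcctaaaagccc

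Searched on both strands were the letters TATAAA of the TATA box, the letters GGGCGG of the GC box, the FoxO core GTAAACA and the STAT pattern TTCNNNGAA, none of which overlap one another in these windows. The Igfbp4 window holds the TATA box letters starting 28 bases before the start site, the Kazald1 window holds the GC box letters at 45 bases before it, and the Igfbp5 window holds none of the 4. Of 13 windows listed for the members, 1 held the TATA box letters, 7 (of 5 genes) held those of the GC box and 0 held the FoxO core or the STAT pattern. Over all 32851 windows of this length the shares were 12.4%, 32.7%, 3.17% and 7.02%. These are matches of letters only. No window was listed for Insr.

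Igfbp4 (ENSMUSG00000017493) encodes a secreted protein that binds IGFs and mostly restrains them. Female PBS libraries lay at 5.02 to 5.80 (median 5.46) and female C26 saline libraries at 5.72 to 6.72 (median 6.35). All 7 C26 libraries were above the PBS mean, and the groups overlapped at their edges. The difference was 0.92 ± 0.19 (1.89-fold, adjusted p = 0.001005, limma). In males PBS libraries lay at 5.18 to 5.72 (median 5.41) and C26 saline libraries at 5.92 to 6.95 (median 6.51), so the groups did not overlap, as held for 4.9% of all genes. The male difference was 1.03 ± 0.18 (2.05-fold, adjusted p = 9.14e-06, limma). With the 19 high-slope libraries removed the differences were 0.88 and 1.06, and without the libraries numbered 1 and 2 they were 0.98 and 1.06; all 4 passed.

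Igfbp4 was lower with 5-fluorouracil and cisplatin than with C26 saline. In females 5-fluorouracil libraries lay at 5.15 to 6.22 (median 5.40) and cisplatin libraries at 5.06 to 5.92 (median 5.38), levels that overlapped the PBS range. Igfbp4 fell by 0.80 ± 0.19 with 5-fluorouracil (adjusted p = 0.0112) and by 0.91 ± 0.20 with cisplatin (adjusted p = 0.00619), in 8 of 8 and 6 of 6 libraries. In males 5-fluorouracil libraries were spread from 5.11 to 6.73 (median 6.02) and cisplatin libraries from 5.26 to 6.42 (median 5.78). Male 5-fluorouracil replicates 1, 2 and 3, with GC slopes of -0.15 to -0.11, lay at 5.11 to 5.55. The 4 high-slope libraries of that group lay at 6.16 to 6.73. Igfbp4 fell by 0.53 ± 0.18 with 5-fluorouracil (adjusted p = 0.027) and by 0.67 ± 0.18 with cisplatin (adjusted p = 0.00607). The fall with 5-fluorouracil in males did not pass when only the compared groups were fitted (adjusted p = 0.0703), without the libraries numbered 1 and 2 (-0.37, adjusted p = 0.14) or without 1 library among C26 saline replicate 5 and 5-fluorouracil replicates 1, 2 and 3 (adjusted p = 0.051 to 0.08). It was still called in a fit that includes each library's slope and with the high-slope libraries removed.

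With paclitaxel, Igfbp4 was not called against C26 saline in either sex. Female paclitaxel libraries lay at 5.65 to 7.03 (median 6.17) and male ones at 5.83 to 6.72 (median 6.36). The difference from C26 saline was -0.11 in females (95% interval -0.50 to 0.28) and -0.12 in males (-0.51 to 0.27). Against PBS, where paclitaxel with tumour called 4.58% of all genes in females and 37.5% in males, Igfbp4 rose by 0.81 ± 0.19 in females (adjusted p = 0.00624) and by 0.92 ± 0.20 in males (adjusted p = 0.00063). The male groups of that comparison did not overlap, as for 2.63% of all genes. Without the 19 libraries of high GC slope, which left 2 male paclitaxel libraries, the male difference was 0.57 (adjusted p = 0.395).

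Drug pairs were compared directly after the data had been seen, 6 pairs in all. No member was called in any pair. Of all genes, 0.188% (paclitaxel against 5-fluorouracil in females), 0.0217% (paclitaxel against cisplatin in females), 0.0144% (each of these in males) and 0% (5-fluorouracil against cisplatin in either sex) were called. At an unadjusted p under 0.05 there were 0 to 2 members, with no share of all genes computed at that threshold. Paclitaxel libraries had more Igfbp4 than 5-fluorouracil libraries by 0.69 ± 0.19 in females (adjusted p = 0.088) and 0.41 ± 0.20 in males (adjusted p = 0.688). They had more than cisplatin libraries by 0.80 ± 0.20 in females (adjusted p = 0.108) and 0.56 ± 0.20 in males (adjusted p = 0.0942). Leaving out female paclitaxel replicate 4 gave 2 calls over the 6 pairs, both of Igfbp4. Leaving out male cisplatin replicate 4 gave 2, of Igfbp4 and Igfbp5 (-0.86, adjusted p = 0.0465), for paclitaxel against cisplatin in males. Without any 1 of female 5-fluorouracil replicate 2, female paclitaxel replicate 6 and male paclitaxel replicates 4 and 6 there was 1 call, of Igfbp4. With libraries weighted by quality, 3 of the 4 Igfbp4 differences passed, at 0.62 (adjusted p = 0.0101), 0.88 (adjusted p = 0.000107) and, for cisplatin in males, 0.72 (adjusted p = 0.0184). Igfbp5 passed too for paclitaxel against cisplatin in males (-1.01, adjusted p = 0.0404).

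**Figure D2:**
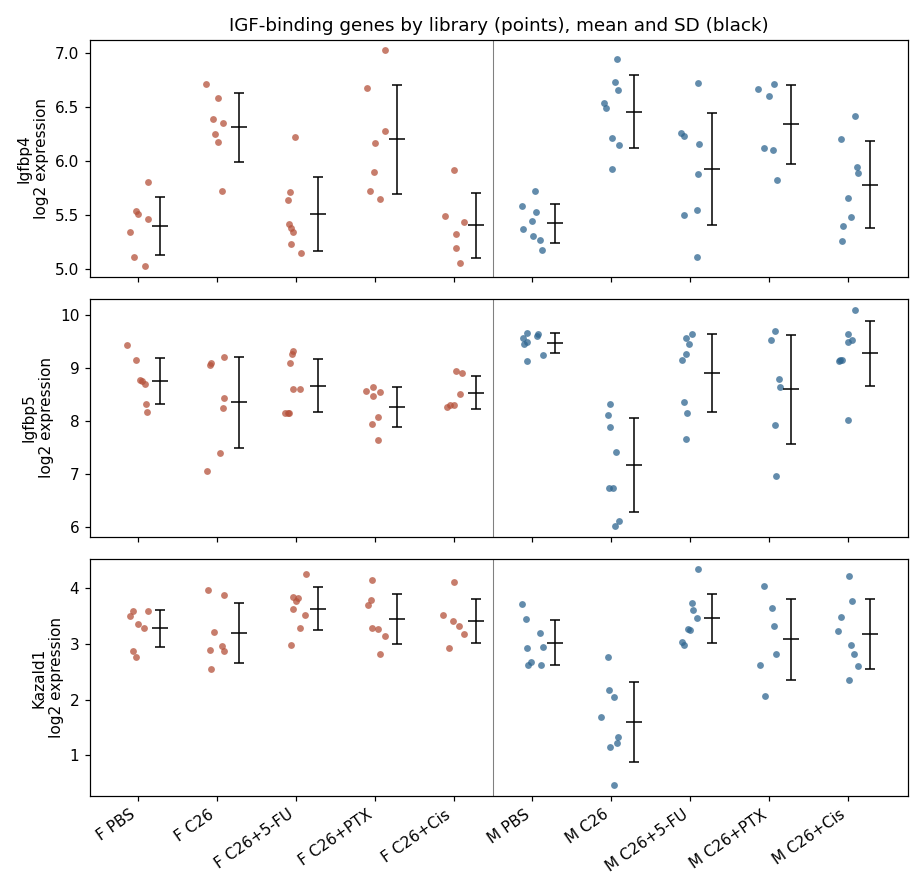
Log2 expression (y axis) of Igfbp4, Igfbp5 and Kazald1 in each library by group (x axis; F female, M male, 5-FU 5-fluorouracil, PTX paclitaxel, Cis cisplatin), with the group mean and SD in black. Igfbp4 is high in C26 and paclitaxel groups of both sexes, and in males Igfbp5 and Kazald1 are low in the C26 saline group (medians 7.08 and 1.51).

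Summed markers of macrophages and of neutrophils, like Igfbp4, had their highest group medians with C26 saline and paclitaxel in both sexes. The summed level of the 10 macrophage markers, all measured, had medians of 68.5 in female PBS, 133 in C26 saline, 77.0 in 5-fluorouracil, 162 in paclitaxel and 84.3 in cisplatin libraries. In males the medians in the same order were 60.0, 131, 97.9, 136 and 83.0. In both sexes the paclitaxel median was above the C26 saline one for macrophage markers and below it for Igfbp4. Among the other female groups PBS was highest for Igfbp4 and lowest for macrophage markers, with cisplatin the reverse. Neutrophil medians with C26 saline and paclitaxel were 13.6 and 8.79 in females and 28.8 and 16.1 in males. Of the 10 macrophage markers, 5 rose in females and 7 in males with the tumour. Of 8 measured neutrophil markers 7 and 8 rose, where 6.7% and 26.1% of all genes were called. Ly6g, a defining neutrophil gene, was not among those measured. Of 12 fibroblast markers 2 rose in females, and 3 rose and 1 fell in males. The median summed fibroblast level was 1599 in female and 1319 in male C26 saline libraries, against 1689 and 1576 with PBS. The part of these cells in the Igfbp4 levels was not tested. Over the 73 libraries the genes most like Igfbp4 among 10572 were Tmem176b (r = 0.905), Lbp, the lipopolysaccharide-binding protein (r = 0.884), and Rarres2, the chemokine chemerin (r = 0.872); all points share the group differences and are given as a description.

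Igfbp5 (ENSMUSG00000026185), a binding protein that sits in the extracellular matrix and is abundant in muscle, had the largest change of the 10 genes. Male PBS libraries lay in a narrow band of 9.14 to 9.66 (median 9.53), while male C26 saline libraries ran from 6.03 to 8.33 (median 7.08). Every C26 library was below every PBS library. The difference was -2.31 ± 0.31 (0.202 of the PBS level, adjusted p = 5e-08, limma). In females PBS libraries lay at 8.17 to 9.44 (median 8.76) and C26 saline libraries at 7.06 to 9.21 (median 8.43), and the difference of -0.40 did not pass (adjusted p = 0.583).

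Under each drug Igfbp5 was higher than in C26 saline males. Libraries lay at 7.67 to 9.65 (median 9.22) with 5-fluorouracil, 6.97 to 9.70 (median 8.73) with paclitaxel and 8.02 to 10.10 (median 9.33) with cisplatin, all overlapping the C26 range. Igfbp5 rose by 1.74 ± 0.31 with 5-fluorouracil (adjusted p = 5.56e-05), by 1.43 ± 0.34 with paclitaxel (adjusted p = 0.00248) and by 2.11 ± 0.31 with cisplatin (4.31-fold, adjusted p = 3.53e-06). The rise held in 8 of 8, 5 of 6 and 8 of 8 libraries. Against male PBS, Igfbp5 stayed lower with paclitaxel by -0.88 ± 0.34 (adjusted p = 0.0356), a call that did not pass without any 1 of PBS replicates 3, 6 and 7 or paclitaxel replicates 1, 2 and 3 (-0.55, adjusted p = 0.204, without paclitaxel replicate 3) and the value was -0.21 (adjusted p = 0.901) with the high-slope libraries removed. In females Igfbp5 was not called for any drug, with differences from C26 saline of 0.31 (5-fluorouracil), -0.08 (paclitaxel) and 0.18 (cisplatin) and 95% intervals that together ran from -0.75 to 0.96.

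Kazald1 (ENSMUSG00000025213) encodes a secreted protein with an IGF-binding-like domain and a Kazal-type domain, known from bone. It was expressed at a low level and changed in males in the same direction as Igfbp5. Male PBS libraries lay at 2.61 to 3.71 (median 2.94) and male C26 saline libraries at 0.46 to 2.76 (median 1.51), with all 8 C26 libraries below the PBS mean and 1 of them, replicate 4, above 3 PBS libraries. The difference was -1.41 ± 0.25 (0.376 of the PBS level, adjusted p = 1.38e-05, limma). With 5-fluorouracil the male libraries lay at 2.98 to 4.34 (median 3.37), above every C26 saline library, as for 0.592% of all genes. Kazald1 rose by 1.85 ± 0.25 with 5-fluorouracil (3.61-fold, adjusted p = 2.88e-06), 1.48 ± 0.27 with paclitaxel (adjusted p = 0.000424) and 1.57 ± 0.25 with cisplatin (adjusted p = 1.02e-05). Kazald1 levels were correlated with the GC slope within groups (r = 0.454), and the highest library of each male drug group was a high-slope one. The 3 rises were still called in a fit that includes the slope and with the high-slope libraries removed. Against male PBS the drug groups did not pass. In females all groups had medians between 2.96 and 3.70, and no comparison passed.

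When the libraries numbered 1 and 2 were left out of every group, the calls of all 4 genes were lost for paclitaxel in males, where only 3 genes of the table were then called: Igfbp5 was at 1.63 (adjusted p = 0.08) and Kazald1 at 1.04 (adjusted p = 0.094). The tumour differences were -2.39 and -1.16 in that fit and -2.29 and -1.22 with the high-slope libraries removed, and all 4 passed. The genes most like Igfbp5 over the libraries were Egflam (r = 0.864), an extracellular matrix protein, D430041D05Rik (r = 0.835) and Dhcr7 (r = 0.825), an enzyme of cholesterol synthesis. Those most like Kazald1 were Ache (r = 0.834), acetylcholinesterase, Mybph (r = 0.829), a myosin-binding protein, and Col11a2 (r = 0.808), a collagen chain.

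Igfbp3 (ENSMUSG00000020427), the main carrier of IGFs in blood, was called in none of the comparisons. Its group medians lay between 4.21 (male PBS) and 4.63 (female C26 saline), and library values ran from 3.50 to 5.28 with overlap between all groups. The largest of its 8 main differences was 0.35 ± 0.19 for the tumour in males (95% interval -0.02 to 0.72, adjusted p = 0.161). In females its drug differences lay between -0.02 and 0.15.

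The receptors were called in male comparisons alone. Igf1r (ENSMUSG00000005533), the tyrosine kinase receptor of both IGFs, lay at 3.51 to 3.89 (median 3.78) in male PBS and 3.64 to 4.61 (median 4.03) in male C26 saline libraries. It rose by 0.35 ± 0.13 with the tumour (1.27-fold, adjusted p = 0.0377), with overlapping groups and 7 of 8 libraries above the PBS mean. The rise was not called when only the compared groups were fitted (adjusted p = 0.0527) and without any 1 of PBS replicates 2 and 8 or C26 saline replicates 1, 2 and 6 (adjusted p = 0.0669 to 0.127). Without the libraries numbered 1 and 2 in every group it was 0.22 (adjusted p = 0.345).

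With drugs, male Igf1r libraries lay at 3.21 to 3.84 (5-fluorouracil), 3.55 to 3.85 (paclitaxel) and 3.12 to 3.94 (cisplatin). All 3 groups overlapped the C26 saline range, and every drug library was below the C26 saline mean. Igf1r fell by 0.54 ± 0.13 with 5-fluorouracil (adjusted p = 0.00168), by 0.43 ± 0.14 with paclitaxel (adjusted p = 0.0165) and by 0.43 ± 0.13 with cisplatin (adjusted p = 0.0151). The cisplatin value did not pass without any 1 of C26 saline replicates 1 and 6 or cisplatin replicate 8 (adjusted p = 0.0555 to 0.0599), nor with the 19 high-slope libraries removed (-0.34, adjusted p = 0.0552), with only the compared groups (adjusted p = 0.0959) or without the libraries numbered 1 and 2 (-0.36, adjusted p = 0.123). The paclitaxel value did not pass with only the compared groups (adjusted p = 0.0558), in a fit that includes each library's slope (-0.29, adjusted p = 0.24), with the high-slope libraries removed (-0.53, adjusted p = 0.0983) or without the libraries numbered 1 and 2 (-0.36, adjusted p = 0.213). In females the drug differences were close together at -0.25, -0.27 and -0.27, and none passed (adjusted p = 0.305 to 0.81). Its nearest genes over the libraries were less alike: Srsf7 (r = 0.698), Herpud2 (r = 0.685) and Bnip3 (r = 0.68).

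Insr (ENSMUSG00000005534), the insulin receptor, lay at 5.27 to 5.94 (median 5.75) in male PBS and 5.65 to 6.28 (median 6.05) in male C26 saline libraries, and the difference of 0.34 did not pass (adjusted p = 0.183), but did with only the compared groups (adjusted p = 0.0321). Male libraries given a drug reached lower values, with lows of 4.80 (5-fluorouracil), 4.31 (paclitaxel) and 4.69 (cisplatin). Insr fell by 0.71 ± 0.19 with 5-fluorouracil (adjusted p = 0.00427), by 0.86 ± 0.20 with paclitaxel (adjusted p = 0.00221) and by 0.56 ± 0.19 with cisplatin (adjusted p = 0.0294). The paclitaxel and C26 saline groups did not overlap, as for 1.49% of all genes. In females the Insr differences lay between -0.24 and 0.08, and none passed.

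Insr levels moved with the GC slope of the library. Over 73 libraries the correlation was -0.862, and -0.879 within groups, given as a description; Ipo7 (r = 0.958), Rb1cc1 (r = 0.95) and Eif4a2 (r = 0.948) were the genes most like it. In a fit that includes the slope the male differences were -0.35 for 5-fluorouracil (adjusted p = 0.00486), -0.26 for paclitaxel (adjusted p = 0.145) and -0.42 for cisplatin (adjusted p = 0.000379), while the tumour difference of 0.32 passed (adjusted p = 0.0031). Without the 19 libraries they were -0.34 (adjusted p = 0.0511), -0.44 (adjusted p = 0.0854) and -0.33 (adjusted p = 0.0222), with 4, 2 and 6 drug libraries left. Against PBS, Insr fell by 0.52 ± 0.20 with paclitaxel in males (adjusted p = 0.0353), was at 0.0604 (adjusted p = 0.764) in a fit that includes the slope, and did not pass without any 1 of PBS replicates 1, 3, 6, 7 and 8 or paclitaxel replicates 1, 2 and 5 (adjusted p = 0.0506 to 0.178). The cisplatin call against C26 saline was lost without any 1 of C26 saline replicates 5 and 6 or cisplatin replicates 4 and 8 (adjusted p = 0.0612 to 0.0914), and with only the compared groups (adjusted p = 0.0575).

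**Figure D3:**
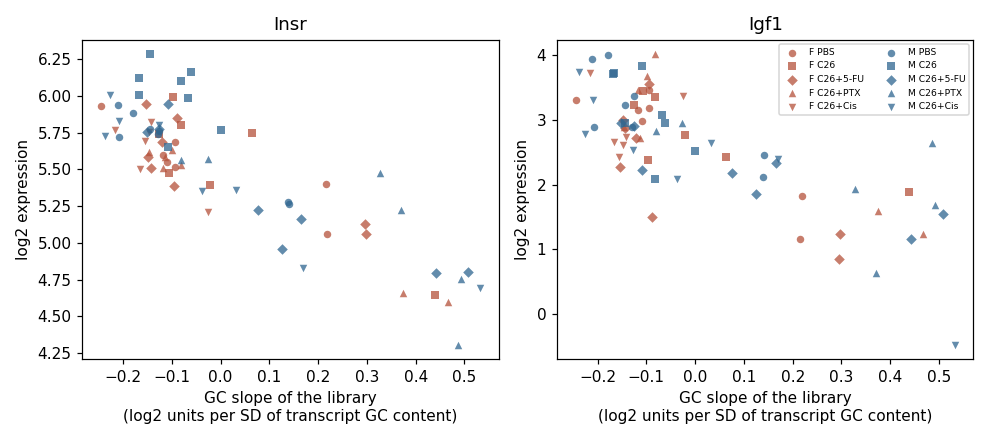
Log2 expression (y axis) of Insr and Igf1 against the GC slope of each library (x axis, log2 units per SD of transcript GC content), with colour for sex and shape for treatment. Both genes are lower in libraries of high slope (r = -0.862 and -0.775 over 73 libraries), and the C26 saline males all lie at a slope below 0.1.

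Irs1 (ENSMUSG00000055980), the adaptor through which IGF and insulin receptors signal to PI3-kinase, was called once among the main comparisons. Male cisplatin libraries lay at 3.61 to 5.63 (median 4.57) against 4.64 to 6.89 (median 5.65) in C26 saline, and Irs1 fell by 1.13 ± 0.30 (0.456-fold, adjusted p = 0.00607), below the C26 mean in 8 of 8 libraries. It did not pass in a fit of the compared groups alone (adjusted p = 0.0516). Female libraries lay at 5.28 to 6.39 (median 5.60) with PBS, 3.62 to 6.04 (median 5.03) with C26 saline and 3.87 to 5.25 (median 4.52) with paclitaxel. Every female paclitaxel library was below every PBS library, as for 1.9% of all genes, and the difference was -1.22 ± 0.33 (adjusted p = 0.016). It was -1.11 (adjusted p = 0.0525) without paclitaxel replicate 2 and -0.83 (adjusted p = 0.331) without the libraries numbered 1 and 2.

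The tumour alone gave a female Irs1 difference of -0.71 ± 0.33 that did not pass (adjusted p = 0.21), and the male difference was 0.20 ± 0.30. With paclitaxel the male difference from C26 saline was -0.65 ± 0.33 (adjusted p = 0.12), and it passed with the high-slope libraries removed (-1.56, adjusted p = 0.0377) and without paclitaxel replicate 3 (-0.91, adjusted p = 0.0347). The genes most like Irs1 were Mcfd2 (r = 0.655), the stress-induced transcription factor Atf3 (r = 0.621) and Otud1 (r = 0.601).

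Irs2 (ENSMUSG00000038894), the second adaptor, ran from 3.68 to 8.43 over all libraries, with group SDs from 0.176 (female cisplatin) to 1.62 (male paclitaxel). Male C26 saline libraries alone ran from 4.89 to 8.41 (median 6.95), against 5.28 to 6.83 (median 5.98) in male PBS. No main comparison called Irs2. The largest differences were -1.32 ± 0.48 for cisplatin in males (95% interval -2.28 to -0.35, adjusted p = 0.0514), -1.05 ± 0.52 for paclitaxel in females (adjusted p = 0.81) and 0.98 ± 0.48 for the tumour in males (adjusted p = 0.133). The cisplatin difference passed in 6 of 10 alternative fits, among them quantile normalization (-1.33, adjusted p = 0.0373), and without any 1 of 5 libraries. The male tumour difference passed without C26 saline replicate 2 (1.27, adjusted p = 0.0439) and without the libraries numbered 1 and 2 (1.69, adjusted p = 0.0133).

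Female Irs2 medians were 6.07 in PBS, 5.39 in C26 saline, 4.44 in 5-fluorouracil, 4.38 in paclitaxel and 4.63 in cisplatin libraries. Against PBS the female differences were -1.19 ± 0.50, -1.64 ± 0.52 and -1.33 ± 0.54 for the 3 drugs in that order, with adjusted p = 0.549, 0.0511 and 0.431. The paclitaxel value passed with quantile normalization (-1.67, adjusted p = 0.0301), only the compared groups (adjusted p = 0.00703), quality weights (-1.49, adjusted p = 0.0054) and the GC slope in the fit (-1.76, adjusted p = 0.0141), and without PBS replicate 4 (-1.90, adjusted p = 0.0249) or paclitaxel replicate 6 (-1.71, adjusted p = 0.0477). With quality weights 5-fluorouracil (-1.30, adjusted p = 0.0423) and cisplatin (-1.15, adjusted p = 0.0461) passed too, and cisplatin passed with only the compared groups (adjusted p = 0.0414). In females, 5-fluorouracil replicate 1 stood apart at 6.79.

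**Figure D4:**
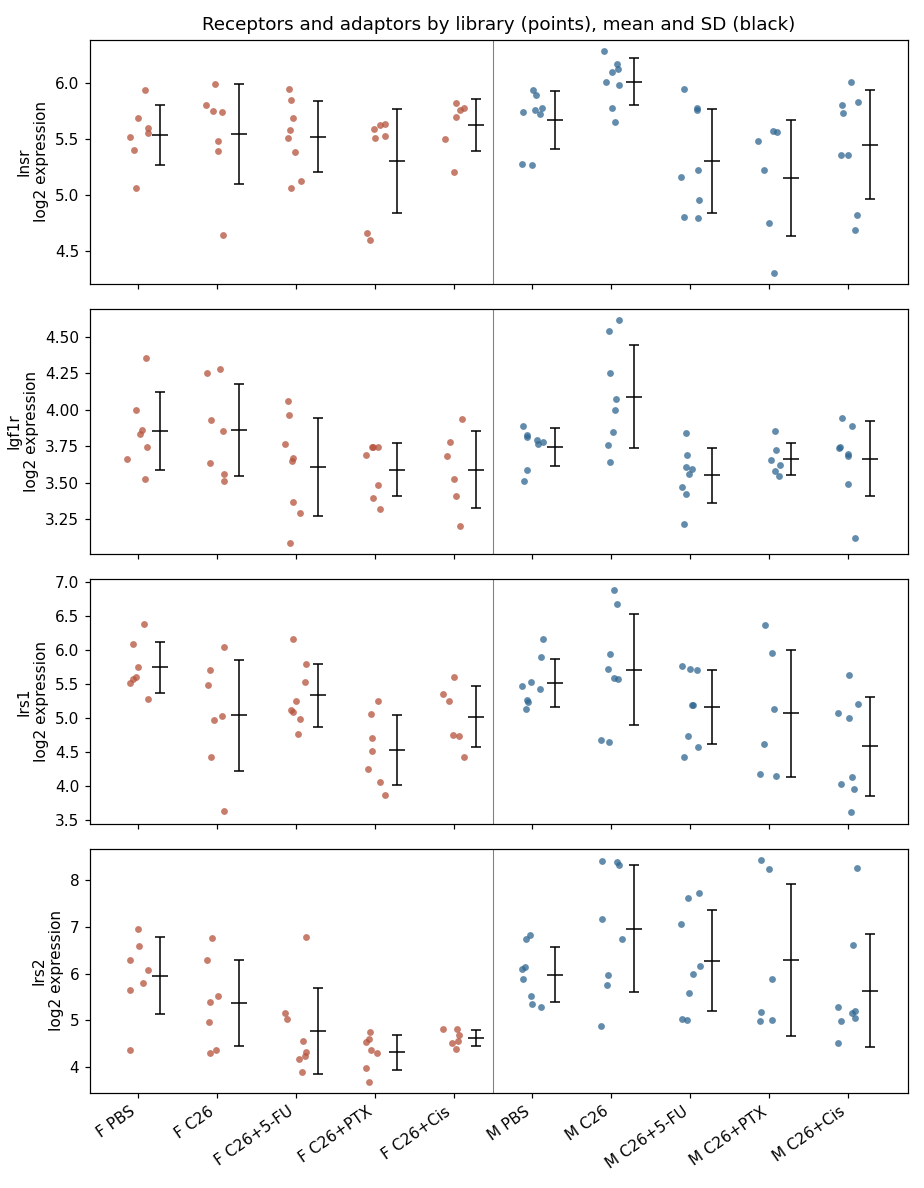
Log2 expression (y axis) of Insr, Igf1r, Irs1 and Irs2 in each library by group (x axis, abbreviated as for the binding genes), with the group mean and SD in black. Male C26 saline libraries are the highest group in Insr and Igf1r (medians 6.05 and 4.03), and Irs2 is spread widely within groups, from 4.89 to 8.41 in male C26 saline libraries.

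The ligands were called in none of the 8 main comparisons. Igf1 (ENSMUSG00000020053), the growth factor made by liver and muscle, had libraries from 2.12 to 4.00 (median 3.07) in male PBS and 2.08 to 3.84 (median 3.02) in male C26 saline. The tumour difference was -0.01 (95% interval -0.82 to 0.81) in males and 0.06 (-0.82 to 0.93) in females, and these intervals leave room for sizeable changes either way. In males the drug groups were lower by -0.96 ± 0.41 (5-fluorouracil, adjusted p = 0.0762), -0.997 ± 0.44 (paclitaxel, adjusted p = 0.0741) and -0.73 ± 0.41 (cisplatin, adjusted p = 0.236). Igf1 levels moved with the GC slope (r = -0.775 over 73 libraries), and in a fit that includes the slope these values were -0.25 (adjusted p = 0.537), 0.19 (adjusted p = 0.785) and -0.44. The 5-fluorouracil value passed with only the compared groups (adjusted p = 0.028). The paclitaxel value passed without any 1 of C26 saline replicate 3 and paclitaxel replicates 4 and 6 (adjusted p = 0.0423 to 0.0476), with a block for the replicate number (-1.09, adjusted p = 0.0485) and with quality weights (-1.12, adjusted p = 0.0376).

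Igf2 (ENSMUSG00000048583), the fetal growth factor, differed between female and male libraries and was called in no treatment comparison of the main fit. Female PBS libraries lay at 4.85 to 6.47 (median 6.14) and male PBS libraries at 3.89 to 4.59 (median 4.20), with no overlap, as for 1.86% of all genes. Igf2 was lower in males by -1.78 ± 0.27 with PBS (adjusted p = 2.28e-06, limma) and by -1.75 ± 0.27 with C26 saline (adjusted p = 6.17e-06), where the groups did not overlap either (0.484% of all genes). Igf2 was the only member called between the sexes with PBS, where 3.39% of all genes were. With only the compared groups fitted, Igfbp5 passed too and was higher in PBS males by 0.72 (adjusted p = 0.0105, limma). Treatment differences in Igf2 lay between 0.13 and 0.39 in the 8 main comparisons, and none passed. The main fit pooled group SDs of 0.172 to 0.414 in males and 0.533 to 0.851 in females. Against PBS, Igf2 in males given paclitaxel passed with only the compared groups (0.50, adjusted p = 0.0155) and with a block for the replicate number (0.60, adjusted p = 0.0345, limma).

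Within females, Igf2 fell into separate sets. The 5 libraries numbered 1, 1 in each group, and those numbered 2 in C26 saline and 5-fluorouracil lay at 4.85 to 5.24, and the other 28 at 6.06 to 7.29, while all 38 male libraries lay at 3.89 to 5.25. Without the libraries numbered 1 and 2 in every group the male minus female differences were -1.92 with PBS and -2.19 with C26 saline. The genes most like Igf2, looked up after its values were seen, were Rtf2 (r = 0.905), Arl2bp (r = 0.884) and Macroh2a1 (r = 0.883), and in each of them the 7 lowest female libraries were these 7. They were picked by their correlation with Igf2 over the same libraries, so their sharing of these 7 libraries is not independent of Igf2. What set these 7 apart was not tested. Sex cannot be told apart here from any other difference between the female and male sets of libraries. Igf2 overlaps the antisense gene Igf2os, and whether counting used strand is not given in the sources used here, so reads of the pair may be combined.

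**Figure D5:**
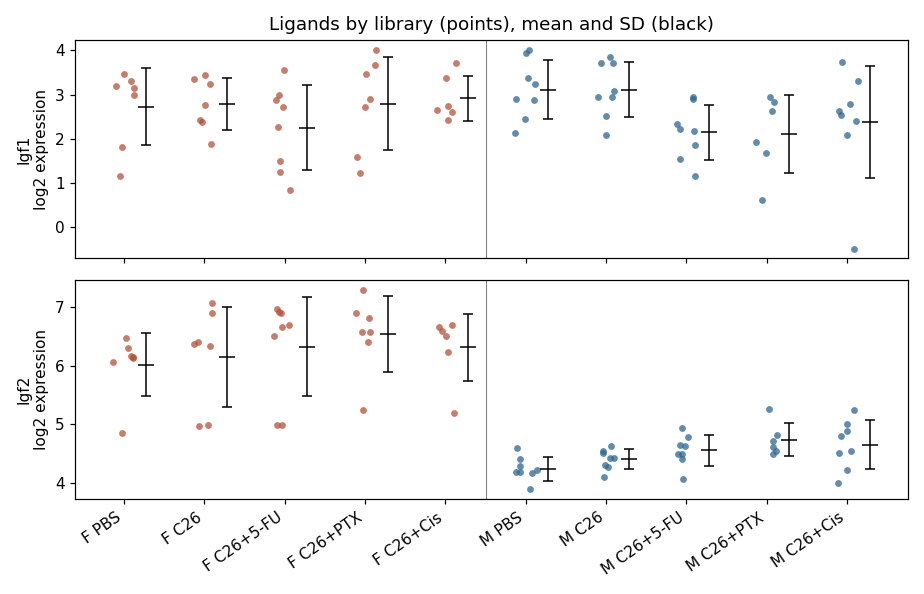
Log2 expression (y axis) of Igf1 and Igf2 in each library by group (x axis, abbreviated as for the binding genes), with the group mean and SD in black. Igf2 is higher in most female libraries than in male ones, with 7 female libraries at 4.85 to 5.24 among or near the male values.

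Between the sexes with C26 saline, 4 of 10 members were called, where 5.89% of all genes were. Besides Igf2, Kazald1 was lower in males by -1.58 ± 0.26 (adjusted p = 3.13e-05) and Igfbp5 by -1.19 ± 0.32 (adjusted p = 0.0171), and Irs2 was higher by 1.58 ± 0.50 (adjusted p = 0.0441). The Igfbp5 and Irs2 values did not pass in a fit of the compared groups alone (adjusted p = 0.125 and 0.123). Igfbp5 did not pass without any 1 of female replicates 2, 4 and 5 or male replicates 3 and 6 (adjusted p = 0.0518 to 0.0638), nor Irs2 without any 1 of female replicates 2, 4, 5, 6 and 7 or male replicates 3, 4, 5, 6 and 7 (adjusted p = 0.0509 to 0.138).

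The difference between the sexes in the effect of a treatment was tested directly, and 0 of 10 members were called for the tumour (0.0361% of all genes) or for any drug (0% of all genes). At an unadjusted p under 0.05, for which no share of all genes was computed, there were 4, 3, 3 and 4 members for the tumour, 5-fluorouracil, paclitaxel and cisplatin. The male minus female effect of the tumour was -1.90 ± 0.46 for Igfbp5 (adjusted p = 0.101) and -1.32 ± 0.37 for Kazald1 (adjusted p = 0.215). For cisplatin it was 1.93 ± 0.47 (adjusted p = 0.123) and 1.35 ± 0.38 (adjusted p = 0.171). Leaving out male C26 saline replicate 4 gave 4 calls in these tests, those of Igfbp5 and Kazald1 for the tumour and for cisplatin. Leaving out any 1 of female C26 saline replicates 1 and 6, male C26 saline replicate 8 and male paclitaxel replicate 3 gave 1 call. The Igfbp5 and Kazald1 changes seen in males were therefore not shown to differ from those in females at this threshold. With quality weights both passed for all 4 treatments (Igfbp5 for the tumour at -1.88, adjusted p = 0.00315), and in the fit that includes the GC slope Igfbp5 passed for the tumour (-1.94, adjusted p = 0.0332).

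Against PBS, tumour-bearing mice given 5-fluorouracil or cisplatin had 0 of 10 members called in either sex, where 0.383% (females) and 4.76% (males) of all genes were called for 5-fluorouracil and 0.209% and 0.902% for cisplatin. At an unadjusted p under 0.05, again with no share of all genes computed, there were 1 and 2 members for 5-fluorouracil and 2 and 1 for cisplatin. Among them Igfbp4 in males given 5-fluorouracil was at 0.50 ± 0.18 (adjusted p = 0.0802) and Irs1 in males given cisplatin at -0.94 ± 0.30 (adjusted p = 0.127). The Igfbp4 value passed with quality weights (0.45, adjusted p = 0.0389), without the libraries numbered 1 and 2 (0.69, adjusted p = 0.0231) and without 5-fluorouracil replicate 1 (0.62, adjusted p = 0.0225) or 3 (0.56, adjusted p = 0.0487). The Irs1 value passed with quality weights (-1.01, adjusted p = 0.0355), without the libraries numbered 1 and 2 (-1.28, adjusted p = 0.0408) and without cisplatin replicate 2 (-1.09, adjusted p = 0.0477). With quality weights Igf1 (-1.05, adjusted p = 0.0108) and Insr (-0.42, adjusted p = 0.0215) passed too for 5-fluorouracil in males. So did Irs1 for cisplatin in females (-0.90, adjusted p = 0.0177). Paclitaxel with tumour had 2 members called in females and 3 in males against PBS, described above for Igfbp4, Irs1, Igfbp5 and Insr.

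In PBS muscle, levels divided by the longest transcript's length placed Igfbp5 first in both sexes, at 75.4 ± 23.6 (SD, n = 7) back-transformed units per kb in females and 120 ± 15.0 (SD, n = 8) in males. In females Igf2 (14.4 ± 3.97), Igfbp4 (11.2 ± 2.05) and Irs2 (11.1 ± 5.25) followed, and the means of these 3 lay within 1 SD of their neighbours. In males Igfbp4 (11.3 ± 1.43) and Irs2 (10.7 ± 4.55) followed, and Igf2 was eighth at 4.04 ± 0.568. Igf1 (1.07 ± 0.472 in females and 1.34 ± 0.608 in males) and Igf1r (1.29 ± 0.254 and 1.18 ± 0.1) were last in both.

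A wider list of 89 pathway genes, of which 83 were measured, was set beside the members. With the tumour 10 rose and 4 fell in females (median -0.02), where 6.7% of all genes were called, and 21 rose and 14 fell in males (median 0.07), where 26.1% were. With drugs in males 9 rose and 12 fell (5-fluorouracil, 23.3% of all genes called), 12 rose and 11 fell (paclitaxel, 31.9%) and 6 rose and 12 fell (cisplatin, 15.9%). In females 3 fell with 5-fluorouracil (1.35% of all genes called), 0 passed with paclitaxel (0%, and 7 of the list at an unadjusted p under 0.05, limma), and 1 rose and 4 fell with cisplatin (1.66%). Values of the wider list come from the main fit alone, and how they depend on GC slope or on single libraries was not tested. High-slope libraries were 4 of 6 with paclitaxel and 0 of 8 with C26 saline in males. Calls over all genes for that comparison went from 4424 to 506 with the GC covariate and to 3 without the libraries numbered 1 and 2.

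Of 12 genes of the FoxO and TSC branch, factors and regulators that AKT acts on, 3 rose and 1 fell with the tumour in females (6.7% of all genes called) and 7 rose and 1 fell in males (26.1%). Foxo1 rose by 1.84 ± 0.43 in females and 2.14 ± 0.40 in males, Foxo3 rose by 0.94 ± 0.19 and 1.19 ± 0.18 in females and males, and Foxo6 fell by 1.87 ± 0.35 and 2.96 ± 0.33 (adjusted p = 0.000162 and 2.72e-10, limma). Eif4ebp1, which holds back cap-dependent translation, rose by 2.39 ± 0.35 in males and fell by 1.43 ± 0.35 with 5-fluorouracil and 1.83 ± 0.35 with cisplatin. In males Foxo6 rose with each drug, by 1.73 ± 0.33, 1.60 ± 0.35 and 1.67 ± 0.33.

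Among the other binding and proteolysis genes, Igfbp7 rose with the tumour in females (0.79 ± 0.17), and in males Stc2, an inhibitor of the pappalysin proteases that cleave IGF-binding proteins, rose by 1.76 ± 0.37 while Igfals, the acid-labile subunit of the circulating IGF complex, fell by 1.20 ± 0.29. Htra4 rose by 1.19 ± 0.36 in females and fell by 1.57 ± 0.34 in males. Among brakes on the receptors, Socs3 rose by 3.15 ± 0.54 in females and 2.64 ± 0.50 in males, and Grb14, which binds the insulin receptor, fell by 0.89 ± 0.25 and 1.30 ± 0.24. Socs3 fell with 5-fluorouracil (by 3.01 ± 0.52 in females and 1.81 ± 0.50 in males) and with cisplatin (by 2.78 ± 0.56 and 2.23 ± 0.50).

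In the PI3-kinase and AKT list of 20 genes, 2 rose and 1 fell with the tumour in females (6.7% of all genes called) and 6 rose and 3 fell in males (26.1%). Male Pik3r1, the regulatory subunit that binds Irs proteins, rose by 1.06 ± 0.26 with the tumour and fell by 1.14 ± 0.26 with 5-fluorouracil and 0.96 ± 0.26 with cisplatin. Pdpk1, the kinase that activates AKT, fell in the main fit by 0.74 ± 0.15, 0.92 ± 0.16 and 0.56 ± 0.15 with the 3 drugs in males. In the glucose list Tbc1d4, which AKT phosphorylates to release GLUT4 vesicles, rose by 0.76 ± 0.17 with the tumour in males and fell by 0.70 ± 0.17, 0.69 ± 0.19 and 0.69 ± 0.17 with the drugs. Of the growth hormone genes, Ghr, the growth hormone receptor, fell by 0.52 ± 0.18 with the tumour in males.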

How the data were processed

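Bulk RNA sequencing libraries of gastrocnemius were analysed from the deposited table of log2 expression values, one row per gene, which the authors had normalized; the submitters' processing notes name FastQC, MultiQC, fastp, Salmon, edgeR, limma and the mm39/GRCm39 build, without versions or roles. Low values came in steps that gave whole reads for 85.0 to 90.7% of values (within 0.02 of a whole number), from which depth was recovered. Of 74 columns, 73 were used: 1 female library whose title and treatment label conflict was left out, and 1 further labelled female PBS sample is not analysed here. The p-values test group differences against the spread between libraries within groups, pooled over the groups.

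All genes were fitted in limma 3.58.1 (R 4.3.3) with 1 mean per sex and arm, 63 residual degrees of freedom before moderation, a mean trend in the prior variance and Benjamini-Hochberg adjustment over 13856 genes. Figures and summaries used Python 3.11.15, numpy 2.4.6 and pandas 2.3.3. Alternatives were quantile normalization, a mean log2 filter of 1, only the compared groups, quality weights, a replicate block, an added 1 after back-transformation, the GC slope as a covariate, removal of the 19 libraries with a slope above 0.1, no variance trend, and leaving out each library. Comparisons between drugs, the fit without the libraries numbered 1 and 2, and the block with only the compared groups were chosen after seeing the data. The fit was tested on simulated data.

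Replicate numbers in the labels were checked as pairs: for paclitaxel against C26 saline in females every one of 7 pairs had a positive correlation of deviations (0.156 to 0.8, the basis being the data and not the labels), and in the other 7 main comparisons the lowest correlation was below 0. The members and the lists of pathway and marker genes were chosen with earlier results of these data known. All 10 members are described; of the pathway genes, up to 3 called genes per list and comparison, with the smallest adjusted p and a mean log2 of at least 0, could be named, and for each called member the 3 genes with the highest correlation. Promoter windows came from RefSeq (GRCm38.p6), a different build from the authors', and were used only as sequence.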

Additional observations from a re-analysis of the deposited data

Results flagged for a closer look

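In 5 of 100 sets of 1 gene in 1 group, a library lay far from the others by Dixon's criterion, which chance meets in about 1 in 20 sets. Igf1 was at -0.48 in male cisplatin replicate 4, where the nearest library was at 2.08. Igfbp5 was at 8.02 in the same library, with the nearest at 9.14, and its GC slope was 0.53. Igf2 was at 4.85 in female PBS replicate 1 (nearest 6.06) and at 5.20 in female cisplatin replicate 1 (nearest 6.23). Irs2 was at 6.79 in female 5-fluorouracil replicate 1, where the nearest library was at 5.15.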

How the results depend on the processing

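Of 22 member calls in the 8 main comparisons, 12 passed under each of the 10 alternative fits run on them and 18 with any 1 library left out, and 52 of 58 uncalled values stayed uncalled in the alternative fits. The number of members called for cisplatin in males was 3 with only the compared groups (6 as reported). Quality weights gave 18 calls in the comparisons with PBS and between sexes (10), 10 in the tests of sex against treatment (0) and 4 between drugs (0). The GC slope as a covariate gave 2 for paclitaxel in males (4) and 1 for sex against treatment (0), and Insr with paclitaxel against PBS in males turned to 0.0604. Without the libraries numbered 1 and 2, paclitaxel in males had 0. With 1 library left out, calls ranged, for females and males, from 1 to 1 and 3 to 4 (tumour), 1 to 1 and 4 to 5 (5-fluorouracil), 0 to 0 and 4 to 5 (paclitaxel) and 1 to 1 and 4 to 7 (cisplatin). They ranged from 8 to 12 in the comparisons with PBS and between sexes, 0 to 4 for sex against treatment (4 without male C26 saline replicate 4) and 0 to 2 between drugs (2 without female paclitaxel replicate 4 or male cisplatin replicate 4). The replicate block left the number of members called as reported in 7 of 8 main comparisons and gave 5 for paclitaxel in males, where it was 4. Counts over all genes moved more: for paclitaxel in males 4424 became 506 with the GC covariate, 722 without the high-slope libraries and 3 without the libraries numbered 1 and 2; for the tumour in females 928 became 2047 with quality weights and 394 without those libraries; and for cisplatin in males 2203 became 3964 with the covariate. The cause was not tested. For arms reduced to 2 libraries the spread was pooled over groups. How depth bears on single genes was not tested; the lowest library values were -0.48 for Igf1 and 0.46 for Kazald1.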
